A study of Danio rerio with 2 samples.

Results

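Endothelial precursor cells of the zebrafish tailbud were described at 16 hours post-fertilization (hpf) in wild type and in stag2b mutants. The cells were chosen on measured UMIs (unique molecular identifiers, which count transcript molecules rather than amplified reads). A barcode was taken when it had at least 5000 UMIs, at most 15% of them mitochondrial, at least 2 UMIs of fli1a, at least 2 UMIs of kdrl, lmo2 and tal1 together, and at most 1 UMI of gata1a. This gave 333 cells in the wild-type library and 512 in the mutant library, 845 of the 45064 barcodes in the series. The wild-type library held 18704 barcodes, of which 17110 passed the limits on total and mitochondrial UMIs, and the mutant library held 26360, of which 23889 passed. The mutant carried the nz207 allele of stag2b, and its cells are called stag2b-/- here. The wild-type strain is AB in the sample labels and WIK in the study's methods, and the labels and methods also name different versions of the 10x Chromium chemistry. Each library was made from a pool of dissected and dissociated tailbuds, and no other allele or treatment is named for either. Since there was 1 library per genotype, no test between genotypes could be made, and library and genotype cannot be told apart. Intervals are given at 95% and are exact, by Clopper-Pearson for a share of cells, by Poisson for a level and by a conditional binomial for a ratio. For shares of cells and their ratio they cover the counting of cells, and for levels and their ratios the counting of UMIs, and nothing else. Those of levels and their ratios leave out the spread between cells.

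Endothelial precursors arise from lateral and ventral mesoderm, and in the zebrafish tailbud some also arise from the bipotent progenitors that otherwise form paraxial mesoderm. The bHLH-PAS factor npas4l and the ETS factor etv2 act early to start the vascular programme, tal1 and lmo2 act in a complex that serves both vessels and blood, and gata1a directs cells to the erythroid fate. Stag2b is one of several alternative Stag subunits of cohesin, the ring complex that holds sister chromatids together and shapes chromatin loops.

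The label was first checked against endothelial genes that the rule did not use. Levels are given as CPM, the UMIs of a gene summed over the cells of a library and scaled to a total of 1000000 UMIs over all genes. Among the 30 genes with the highest level relative to all other filtered cells of both libraries were fli1b (an ETS factor), flt1 (a decoy receptor for Vegf), etv2, cdh5 (VE-cadherin), sox7 (a SoxF factor), egfl7 (a secreted endothelial protein), flt4 (the Vegfc receptor), stab2 and clec14a. flt1 was 108-fold higher than in other wild-type cells and 268-fold higher than in other mutant cells. etv2 was 107-fold and 110-fold higher, cdh5 84.3-fold and 113-fold, and egfl7 66.4-fold and 77.9-fold. These folds describe the chosen cells and are no test of them. The other filtered cells included 448 wild-type and 641 mutant cells that failed only the gata1a limit. Endothelial transcripts were present in these too, with cdh5 at 42.5 and 26.2 CPM. Every value below for all other filtered cells, or elsewhere, takes them in. The defining endothelial factor erg was barely detected, at 0.598 CPM (wild type) and 0.522 CPM (mutant), where 3 UMIs over the summed cells, the limit that a count of 0 allows, come to 0.449 and 0.313 CPM, and the neutrophil gene mpx was at 0 in both. Kidney genes were not absent. A list of them summed to 252 and 177 CPM in the chosen cells, against 34.3 and 45.6 CPM in all other filtered cells. Its member pax2a had a UMI in 173 wild-type and 239 mutant chosen cells. Much of the sum was pax2a, which was at 124 and 96.6 CPM even without the UMIs of its 10 highest cells. For cdh17, another kidney gene, 10 cells held 81.9% and 79.1% of the UMIs.

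Not every chosen cell carried the other endothelial genes. No UMI of etv2 was found in 71 wild-type cells (21.3%, 17.0 to 26.1) and in 128 mutant cells (25%, 21.3 to 29.0). In 82 wild-type cells (24.6%, 20.1 to 29.6) and 156 mutant cells (30.5%, 26.5 to 34.7), UMIs of the endothelial gene list, without the rule's genes, did not outnumber those of a paraxial mesoderm list. The results below are for all the chosen cells unless a narrower set is named.

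The limits of the rule fell within continuous ranges. fli1a was exactly at its minimum of 2 UMIs in 69 wild-type and 87 mutant cells, while 124 and 147 cells with 1 UMI met every other condition and stayed out. For kdrl, lmo2 and tal1 together, 9 and 16 cells were at the minimum of 2 and 11 and 17 were just below it at 1. gata1a was at 0 in 260 and 416 cells and at its maximum of 1 in 73 and 96, while 68 and 77 cells with 2 UMIs and 380 and 564 cells with 3 or more were left out. Inside the limits the median cell had 6 fli1a UMIs in wild type and 8 in stag2b-/-, 70 and 55 of lmo2, and 15 and 11 of tal1.

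Sequencing depth, doublet calls and mitochondrial content differed between the libraries. The chosen cells had a median of 18749 UMIs (5069 to 100434) and 4124 genes in wild type and 16918.5 UMIs (5009 to 56075) and 4078 genes in stag2b-/-. Scrublet called 19 of the wild-type cells (5.71%) and 83 of the mutant cells (16.2%) as doublets, against 4.47% and 10.5% of all filtered cells. Median mitochondrial content was 2.84% and 1.92%. The libraries shared 125 barcodes, carried by 5 of the chosen wild-type cells and 4 of the mutant cells.

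Endothelial precursors made up a similar share of both libraries. They were 1.95% (1.74 to 2.16) of the filtered wild-type cells and 2.14% (1.96 to 2.33) of the filtered stag2b-/- cells, a ratio of 1.101 (0.957 to 1.27). When every cell was thinned to 5000 UMIs before the gene conditions were applied, 314 wild-type cells (1.84%, 1.64 to 2.05) and 510 mutant cells (2.13%, 1.96 to 2.33) were found, a ratio of 1.16 (1.01 to 1.34). The ratio was 1.04 without called doublets and 1.01 when at least 2 UMIs of etv2 were also asked for. The difference in share was therefore at the edge of counting error. The rule's own genes also differed between the libraries outside the chosen cells. In all other filtered cells fli1a was at 14.4 against 20.3 CPM (log2 ratio 0.49), while kdrl, lmo2 and tal1 were lower (-0.89, -0.66 and -0.52). The part of these differences in the share was not tested.

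stag2b itself (ENSDARG00000053668) was lower in the mutant cells. It was measured at 123 CPM (115 to 132) in the wild-type cells and 58.6 CPM (53.8 to 63.6) in the mutant cells. The log2 ratio was -1.07 (-1.23 to -0.91), against -0.81 in all other cells and -0.87 when no limit was put on gata1a. After thinning to 5000 UMIs, 40.8% of wild-type and 23.0% of mutant endothelial precursors had a stag2b UMI (77.8% and 58.8% unthinned). The paralogues stag1a and stag1b were higher, stag1a at 19.7 against 30.2 CPM and stag1b at 37.4 against 57.6 CPM (log2 ratios 0.61 and 0.62). Of 14 genes of cohesin and its regulators that reached 20 CPM in one or both libraries, 13 had a log2 ratio above 0 and the exception was stag2b. Of all 6119 genes at that level, 3658 lay above 0. The list's median was 0.24 (0.21 in all other filtered cells), with 0.09 as the median of all 6119 genes. After TMM scaling the list and all genes had medians of 0.11 and -0.04, and 3 of the 14 genes lay below 0.

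Of 3167 genes that reached 50 CPM in one or both libraries, 59 (1.86%) were at least 2-fold higher and 75 (2.37%) at least 2-fold lower in stag2b-/- endothelial precursors. After TMM scaling, which set the mutant library's log2 ratios lower by 0.13, the counts were 43 higher and 89 lower. At 20 CPM, the minimum used for the gene lists below, 174 of 6119 genes (2.84%) were at least 2-fold higher and 161 (2.63%) at least 2-fold lower.

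Most genes of the vascular programme had lower values in the mutant cells, by less than 2-fold for nearly all of them, and the extent depended on the called doublets. Of 45 listed endothelial genes, 31 passed 20 CPM, and 25 of these had a log2 ratio below 0. Without the rule's genes it was 22 of 27, beside 2461 of all 6119 genes at that level. The median was -0.30 over the 31 genes and -0.29 without those of the rule. By 2-fold, 1 gene was higher (adgrl4) and 2 were lower (tie1 and mrc1a), shares near the background given above. All 45 genes summed to 11918 CPM for wild type against 9098 CPM for the mutant. This sum includes the rule's genes, lmo2 alone giving 4396 and 3311 CPM of it, and is a description only. Again without the rule's genes, the median was -0.07 without called doublets (17 of 27 genes below 0), -0.29 in cells with at least 2 etv2 UMIs and -0.42 after TMM scaling, beside all-gene medians of 0.08, 0.08 and -0.04. The list holds etv2 itself, so the cells chosen on etv2 UMIs are no check of it. In all other filtered cells the list's median was -0.45.

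The wild-type cells had etv2 at 2509 CPM and the mutant cells at 1488 CPM (log2 ratio -0.75, -0.79 to -0.72). The median cell held 39 etv2 UMIs in wild type and 16.5 in stag2b-/-, with quartiles of 3 and 86 against 0.75 and 49.25 and highest cells of 201 and 142. For each 10000 UMIs of a cell the median was 19.0 against 8.59 and the upper quartile 47.8 against 27.9. The distributions of single cells overlapped over most of their range. The thinned share of cells with an etv2 UMI came to 74.2% for wild type against 68.6% for the mutant (78.7% and 75% unthinned), with 0.734% and 0.75% of epidermal (tp63-positive) cells at the same thinned depth as the background. Those epidermal cells had median depths of 21995 and 20417.5 UMIs. Scrublet called 12.8% and 24.8% of them as doublets, so this background may hold doublets as well as free RNA. The UMIs of the median cell thus differed by more than the share of cells did, and etv2 was the most deeply counted of the listed endothelial genes that the rule did not use. Its log2 ratio lay between -0.88 and -0.59 in every alternative selection and scaling tried, and was -0.62 without called doublets. The value of -0.59 came from cells with at least 2 etv2 UMIs. Cells with more endothelial than paraxial UMIs (-0.67) were also chosen partly on etv2, so neither selection is a check of it. In all other filtered cells etv2 was at 23.5 against 13.6 CPM, a log2 ratio of -0.79.

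**Figure D1:**
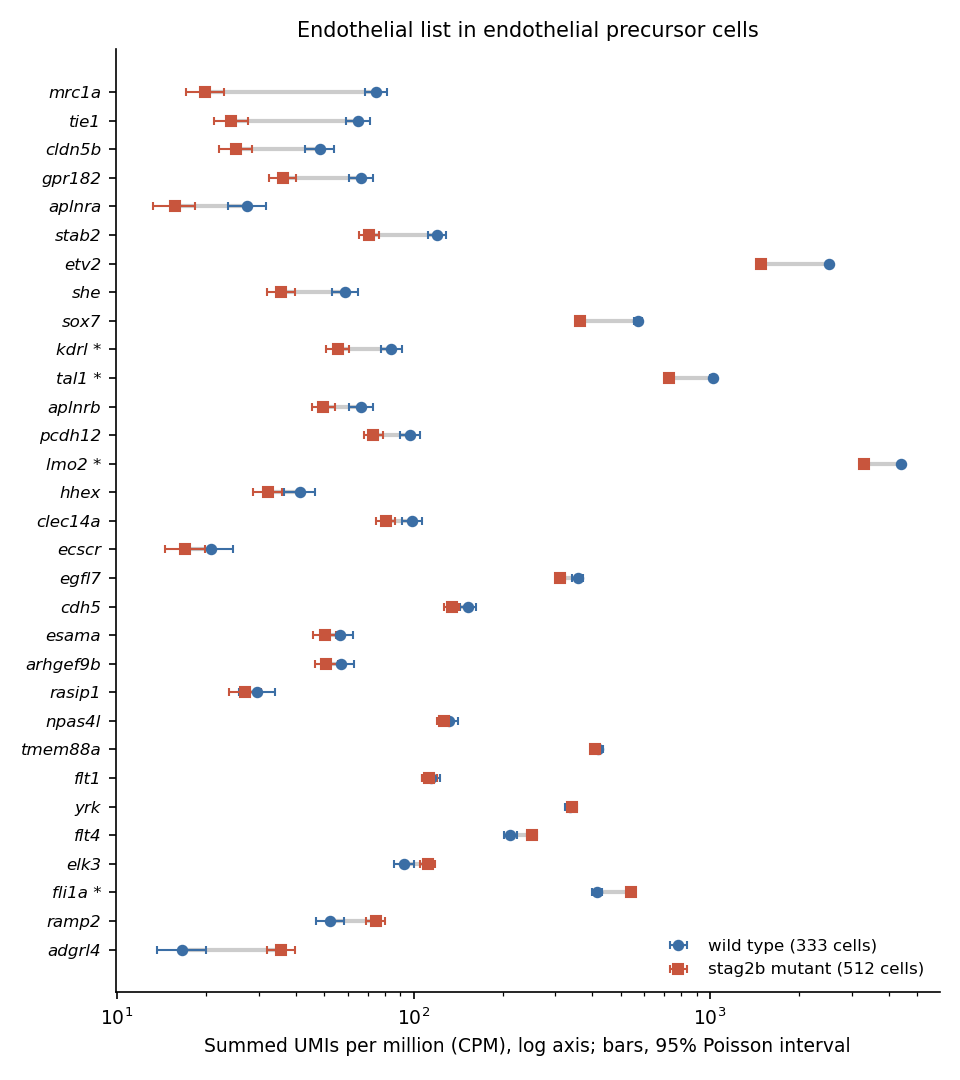
Level (CPM, log axis) of the 31 endothelial genes that reached 20 CPM, summed over the chosen cells of each library, with 95% Poisson intervals and genes ordered by log2 ratio. Asterisks mark genes that the rule used. Most genes, etv2 and sox7 among them, lie lower in stag2b-/-, whereas adgrl4 lies higher and flt1, yrk and tmem88a nearly coincide.

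The endothelial genes differed among themselves. sox7 was at 571 against 364 CPM (wild type first here and below, log2 ratio -0.65), and its thinned share of cells was 66.7% against 59.2% (76.6% and 72.5% unthinned, 0.306% and 0.353% of epidermal cells). tie1, an endothelial receptor tyrosine kinase, was at 65.1 CPM (59.1 to 71.5) against 24.3 CPM (21.3 to 27.7), a log2 ratio of -1.42 (-1.65 to -1.19), and was detected after thinning in 22.2% against 8.79% of cells (36.9% and 16.4% unthinned, none and 0.0883% of epidermal cells). It remained at least 2-fold lower in every alternative, between -1.55 and -1.09. mrc1a, a mannose receptor of veins and lymphatics, was at 74.8 against 19.8 CPM (log2 ratio -1.91), but only 66 wild-type and 44 mutant cells held any of its UMIs. Without the UMIs of the 10 cells of each library that held most of it, over the same total, mrc1a was at 46.2 and 8.87 CPM. In all other filtered cells sox7, tie1 and mrc1a were also lower, with log2 ratios of -0.62, -1.61 and -1.34. Those cells include the ones that failed only the gata1a limit, so they are not unrelated to the chosen cells. There sox7 was at 158 against 94.9 CPM, tie1 at 9.44 against 2.87 CPM and mrc1a at 19.8 against 6.74 CPM. Over all other filtered cells mrc1a was at 0.764 against 0.301 CPM.

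Other genes of vessel junctions and receptors were lower by less than 2-fold. cldn5b, an endothelial claudin, was at 48.3 against 25.2 CPM (log2 ratio -0.94), the receptor gpr182 at 66.4 against 36.2 CPM (-0.87) and the scavenger receptor stab2 at 120 against 70.7 CPM (-0.76). Some listed genes, chosen here because their values lay close together, differed little. npas4l was at 132 against 127 CPM (-0.06), cdh5 at 153 against 134 CPM (-0.19), egfl7 at 357 against 313 CPM (-0.19), and tmem88a, which encodes a transmembrane inhibitor of Wnt signalling, at 420 against 409 CPM (-0.04). Genes on the higher side were ramp2, a receptor partner of adrenomedullin signalling, at 52.4 against 74.4 CPM (0.51), and the adhesion receptor adgrl4 at 16.6 against 35.7 CPM (1.1, and 0.98 after TMM scaling). The genes used by the rule are given as a description: fli1a was at 416 and 543 CPM, kdrl at 84.2 and 55.4 CPM, lmo2 at 4396 and 3311 CPM and tal1 at 1026 and 726 CPM.

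**Figure D2:**
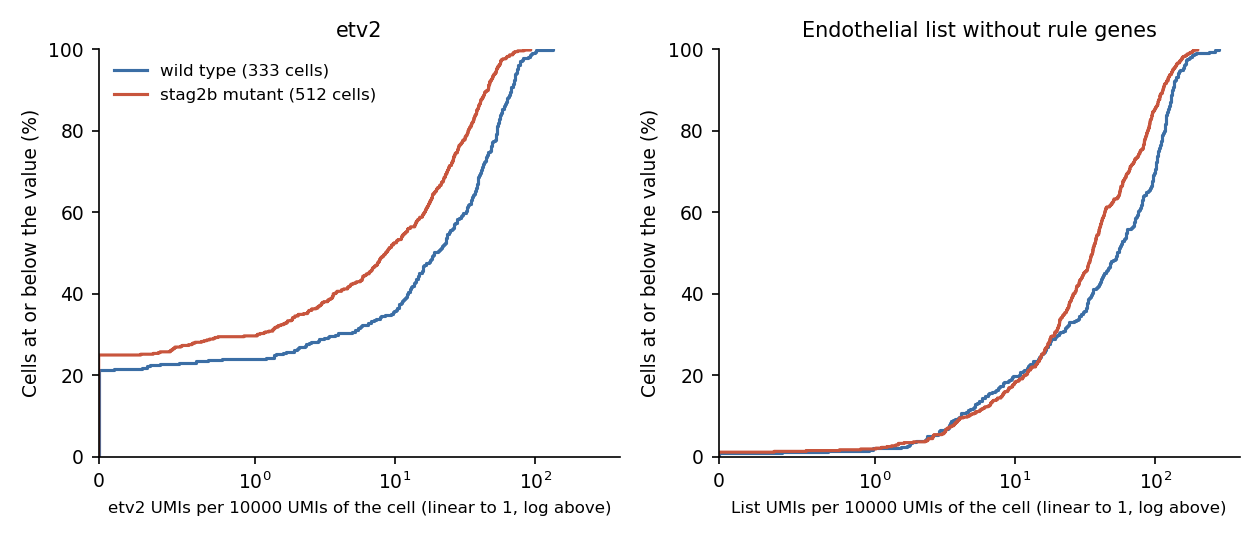
Cumulative share of the chosen cells (%) against etv2 UMIs for each 10000 UMIs of a cell (left) and against UMIs of the endothelial list without the rule's genes (right), one line per library. The mutant line lies above the wild-type line through the middle of both panels, with medians of 8.59 against 19.0 for etv2 and 35.8 against 53.4 for the list, while the lower quartiles of the list nearly coincide at 15.5 and 15.4.

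Receptors for Vegf, the ligand family that guides angioblasts, showed no 2-fold difference. kdrl belonged to the rule, flt1 was at 114 against 113 CPM (log2 ratio -0.02), flt4 at 212 against 251 CPM (0.24), and the co-receptors nrp1a, nrp1b and nrp2b had log2 ratios of -0.34, -0.38 and -0.23. In all other filtered cells flt1 was lower in the mutant, at 1.06 against 0.421 CPM (-1.33), and flt4 had a ratio of -0.04. The flt1 difference between the 2 sets of cells was not tested. The 6 genes of this list at 20 CPM had a median of -0.28, and of -0.23 without kdrl. All 14 genes of the list, kdrl included, summed to 722 and 683 CPM. Among 14 arterial and Notch genes, 1 was lower by 2-fold and none higher. This was gja5a, a connexin of arteries, at 22.7 against 7.62 CPM (-1.58, and -0.997 after thinning). dll4, the Notch ligand of arteries, was at 22.1 against 11.3 CPM (-0.97), and the hairy-related repressor her6 at 859 against 515 CPM (-0.74). On the higher side, her15.1, a Notch target, was at 406 against 544 CPM (0.42), and the receptors notch1a and notch3 each had a log2 ratio of 0.34. These rises were not particular to the chosen cells. In all other filtered cells the log2 ratios of her15.1, notch1a and notch3 were 0.40, 0.32 and 0.53. There her6 had a ratio of -0.56 and gja5a one of -0.09. The list's median of 0.20 (0.07 after TMM scaling) and its sum, 2165 against 2044 CPM, differed in direction. Of 6 venous and lymphatic genes, mrc1a alone passed 2-fold. nr2f2, a nuclear receptor of venous identity, was at 21.2 against 33.7 CPM (0.67) and dab2, an endocytic adaptor, at 24.5 against 12.4 CPM (-0.98). In all other filtered cells nr2f2 had a log2 ratio of 0.73 and dab2 one of 0.25.

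Genes of the blood programme were also measured, since endothelial and blood precursors share their early regulators. Of 15 such genes, 3 were lower by 2-fold (drl, drll.1 and blf), none was higher, and 11 had a log2 ratio below 0. Without the rule's genes 9 of 13 lay below 0. Of all 6119 genes at 20 CPM, 161 (2.63%) were lower by 2-fold and 2461 lay below 0. The median was -0.41, and -0.16 without the rule's genes. The gata1a limit cuts on this programme itself. With no limit on gata1a the 13 genes had a median of -0.00018, with 7 below 0 and 2 lower by 2-fold. drl, a zinc finger gene of lateral mesoderm in zebrafish, was at 176 against 67.0 CPM (log2 ratio -1.39), and remained past 2-fold in every alternative (-1.81 to -1.16). drll.1 was at 104 against 42.8 CPM (-1.28) and blf at 101 against 34.6 CPM (-1.54). For blf, 10 wild-type cells held 54.2% of the UMIs, and its ratio lay within 2-fold after thinning (-0.73), with at most 5 globin UMIs (-0.82) and with no limit on gata1a. The paralogue drll.2 was at 138 against 133 CPM (-0.06). In all other filtered cells the log2 ratios of drl, drll.1, blf and drll.2 were -1.20, -1.08, -0.72 and 0.57. Those cells include the ones that failed only the gata1a limit, where drl was at 645 against 306 CPM and blf at 1025 against 630 CPM. Over all other filtered cells drl was at 29.2 against 12.7 CPM and blf at 58.0 against 35.1 CPM. The draculin-like genes are close copies within one gene family, so that reads may have been split between them. Among regulators of myeloid cells, cebpa was at 122 against 75.6 CPM (-0.69) and spi1b at 12.7 against 5.22 CPM. runx1, the factor of definitive blood, was at 43.8 against 29.4 CPM (-0.57), gata2a at 162 against 145 CPM (-0.16), klf17 at 87.6 against 94.1 CPM (0.10, and -0.02 after TMM scaling) and gfi1aa, a repressor needed for endothelial cells to become blood, at 49.7 against 59.9 CPM (0.27).

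Globin transcripts were lower in the mutant cells but came from few cells. All 8 globin genes at 20 CPM had a log2 ratio below 0, 6 of them past 2-fold, with a median of -1.46. With no limit on gata1a the median was -0.88, with 7 of the 8 below 0 and 4 lower by 2-fold. The whole list summed to 1204 against 502 CPM. hbbe3 was at 411 against 141 CPM (-1.54) and hbbe1.3 at 149 against 24.8 CPM (-2.58). The 10 cells with most globin held 52.3% of the 8047 globin UMIs in wild type and 42.7% of the 4812 in stag2b-/-, and 68 and 76 cells had more than 5 globin UMIs. In cells with at least 2 etv2 UMIs the globins summed to 92.4 and 80.9 CPM, and hbbe3 was higher rather than lower in the mutant (0.62). hbae1.3 also turned, to 1.39 in those cells and 2.42 in cells with at most 5 globin UMIs. Globin genes are near-identical copies, so that their separate values are uncertain. In all other filtered cells the globin list was lower as well, with a median of -0.92 and sums of 854 against 504 CPM. These include the cells that failed only the gata1a limit, where hbbe3 was at 7520 against 4830 CPM (-0.64). Over all other filtered cells hbbe3 was at 355 against 210 CPM (-0.76).

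The chosen cells were split at 2 etv2 UMIs, a limit that fell within a continuous range of counts. Globins and myeloid genes were unequally shared between the 2 sets. Cells with at least 2 etv2 UMIs were 255 in wild type (76.6%, 71.7 to 81.0) and 360 in stag2b-/- (70.31%, 66.1 to 74.2). The endothelial list without etv2 and the rule's genes summed to 4106 CPM in these cells and 962 CPM in the others of wild type, and to 3562 and 1498 CPM in the mutant. Globins went the other way, at 92.4 against 5733 CPM in wild type and 80.9 against 1565 CPM in the mutant. Doublet calls were similar in both sets, at 5.49% and 6.41% in wild type and 15.8% and 17.1% in stag2b-/-.

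The cells were also split after thinning each to 5000 UMIs, which left 247 wild-type and 351 mutant cells with an etv2 UMI and 86 and 161 without. gfi1aa had a UMI in 3.24% (1.41 to 6.28) of wild-type cells with etv2 and 45.3% (34.6 to 56.5) of those without it. In stag2b-/- these shares were 8.83% (6.08 to 12.3) and 31.7% (24.6 to 39.5), and the background in epidermal cells was 0.306% and 0.221%. spi1b was likewise found mostly without etv2, in 0.810% against 17.4% of wild-type cells and 0.285% against 9.94% of mutant cells, over 0.0612% and 0.132% of epidermal cells. runx1 was found in 11.3% against 23.3% and in 6.55% against 25.5%, over 1.9% and 0.883%. npas4l showed the opposite arrangement, with 49.0% (42.6 to 55.4) of wild-type cells with etv2 and 4.65% (1.28 to 11.5) of those without it, and 44.4% (39.2 to 49.8) and 19.9% (14.01 to 26.9) in stag2b-/-, over 0.917% and 1.41% of epidermal cells. Unthinned and over all the chosen cells, gfi1aa was found in 19.2% and 23.8%, spi1b in 11.1% and 5.27%, runx1 in 30.9% and 22.5%, and npas4l in 55.3% and 61.9%. These shares compare cells within a library and not genotypes, the genes were chosen after their values were seen, and the difference between the 2 sets was not tested.

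Paraxial mesoderm and progenitor transcripts were present in both sets. meox1, a somite homeobox gene, had a UMI in 42.5% of wild-type cells with etv2 and 17.4% of those without, and in 47.6% and 31.1% in stag2b-/-. Epidermal cells, which should lack meox1, gave 11.9% and 17.7%. Called doublets were 12.8% and 24.8% of these epidermal cells, and their part in this background was not tested. tbxta, the Brachyury gene of tailbud progenitors, was found in 38.5% and 17.4% of wild-type cells and 46.4% and 29.8% of mutant cells, over a background of 9.79% and 13.2%. For msgn1, a bHLH factor of presomitic mesoderm, the shares were 33.6% and 26.7% in wild type and 43.0% and 36.0% in stag2b-/-, over a higher background of 19.5% and 29.6%. Unthinned, 49.8% and 58.6% of the chosen cells had meox1, 52.9% and 61.9% tbxta, and 45.3% and 58.0% msgn1. The shares of meox1 and tbxta in cells with etv2 were thus well above the background of both libraries, whereas in wild-type cells without etv2 the intervals (10.1 to 27.1 for both) reached down to or near it.

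**Figure D3:**
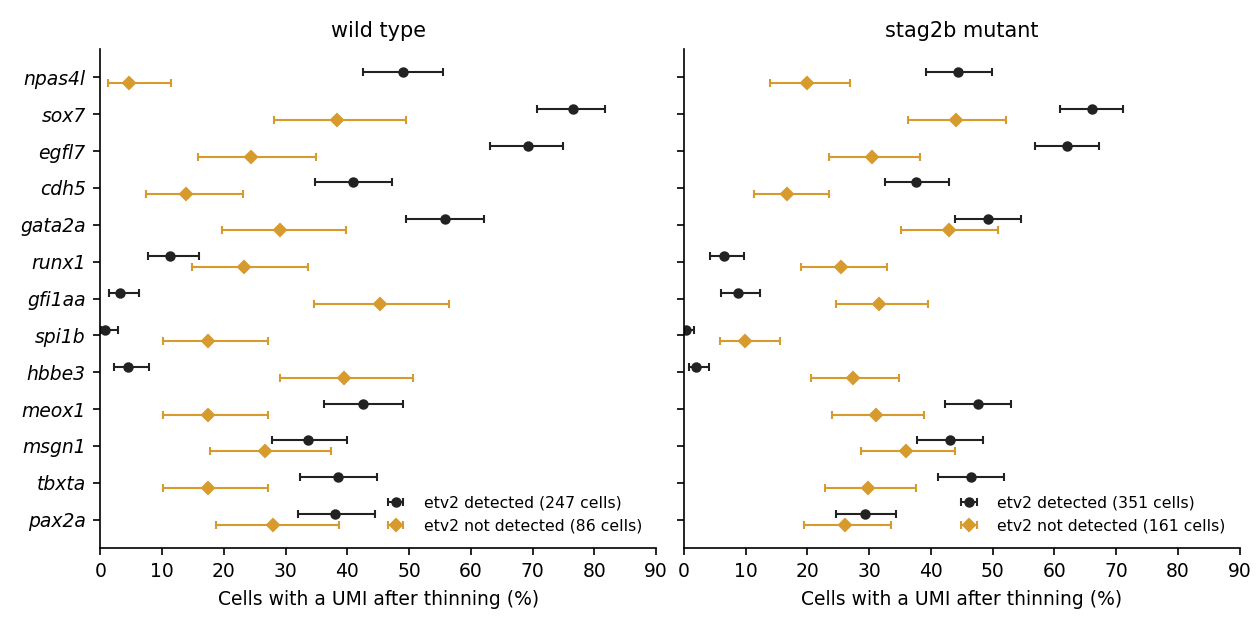
Share of the chosen cells (%) with a UMI of each of 13 genes after thinning to 5000 UMIs, for cells with and without an etv2 UMI in each library, with 95% Clopper-Pearson intervals. gfi1aa, spi1b and hbbe3 are found mostly in cells without etv2, whereas npas4l, cdh5, egfl7 and sox7 are found mostly in cells with it.

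The genes with the largest differences were mostly not vascular genes, and most were more than 2-fold apart in all other filtered cells as well. The 10 genes highest in the mutant relative to wild type, among those that reached 50 CPM, were csrp1b, si:dkey-286j15.3, capn8, s100a1, myl10, pdlim3a, stm, vrk3, BX248122.1 and znfl1k. In the order given, si:dkey-286j15.3, pdlim3a, stm, vrk3, BX248122.1 and znfl1k had log2 ratios of 4.25, 3.74, 2.87, 2.67, 2.61 and 2.53, and of 3.90, 3.36, 2.71, 2.46, 2.46 and 2.87 in other cells. csrp1b, a LIM-domain gene, was at 2.54 against 90.9 CPM (log2 ratio 5.16, and 3.96 in other cells) and was spread over 373 mutant cells. The calpain gene capn8 was at 10.0 against 173 CPM (4.11, and 1.82 in other cells), and the calcium-binding gene s100a1 had a log2 ratio of 4.09 (3.15 in other cells). For myl10, a muscle myosin light chain, 10 mutant cells held 94.8% of the UMIs, so that its ratio of 4.06 (0.59 in other cells) rested on few cells.

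The 10 genes lowest in the mutant relative to wild type were CABZ01079276.1, si:dkey-102m7.3, ppp1r14aa, cfd, hsp70.2, gpx4a, CABZ01079281.1, ENSDARG00000109563, CABZ01079280.1 and hbbe1.3. CABZ01079276.1 was lower by a log2 ratio of -5.90 (-5.84 in other cells), si:dkey-102m7.3 by -4.18 (-4.73), the heat shock gene hsp70.2 by -3.65 (-3.72) and gpx4a, a glutathione peroxidase, by -3.31 (-3.33). ppp1r14aa, of a family that inhibits protein phosphatase 1, was at 164 against 10.1 CPM (-4.02), and had a UMI in 48.0% of wild-type and 5.47% of mutant cells after thinning (73.3% and 12.3% unthinned), over 13.6% and 1.99% of epidermal cells. Its log2 ratio in other cells was -2.86. CABZ01079281.1, ENSDARG00000109563, CABZ01079280.1 and hbbe1.3 had log2 ratios of -2.90, -2.77, -2.61 and -2.58, and of -2.10, -2.98, -1.81 and -2.25 in other cells. cfd, complement factor D, had a log2 ratio of -3.85 (-2.30 in other cells), but only 37 wild-type and 17 mutant cells held its UMIs.

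A few genes had unlike ratios in endothelial precursors and in the other cells of the same libraries, and these differences were not tested. One was ponzr1, a gene of kidney development in zebrafish, at 168 against 39.4 CPM (log2 ratio -2.09) in endothelial precursors and -0.24 elsewhere. It was not particular to the chosen cells, since cells that met the same conditions but had at least 2 gata1a UMIs had 23.9 against 9.17 CPM (-1.38), and 10 cells held 52.5% and 55.7% of its UMIs in the chosen cells. A ponzr1 UMI was found in 18.6% of wild-type and 7.42% of mutant cells after thinning (24.9% and 11.1% unthinned), over 0.734% and 0.838% of epidermal cells. Some of these differences rested on a handful of cells. For cldnh (-1.74, and 0.11 elsewhere) and cldnc (-1.53, and 0.22 elsewhere), both claudins, 10 wild-type cells held 97% of the UMIs. krt5 (0.76, and -0.56 elsewhere) was held to 91.7% and 94.0% by 10 cells of each library. Its direction turned to that of the other cells after thinning (-1.82), with at least 2 etv2 UMIs (-2.24), with more endothelial than paraxial UMIs (-2.47), with at most 5 globin UMIs (-2.30) and with no gata1a UMI (-2.42). aqp8a.1, an aquaporin among the 30 leading genes of the chosen cells, was at 500 against 206 CPM (-1.28) and had a similar ratio elsewhere, at 8.61 against 3.58 CPM (-1.26). In the cells that failed only the gata1a limit, which are part of those elsewhere, it was at 151 against 59.5 CPM.

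**Figure D4:**
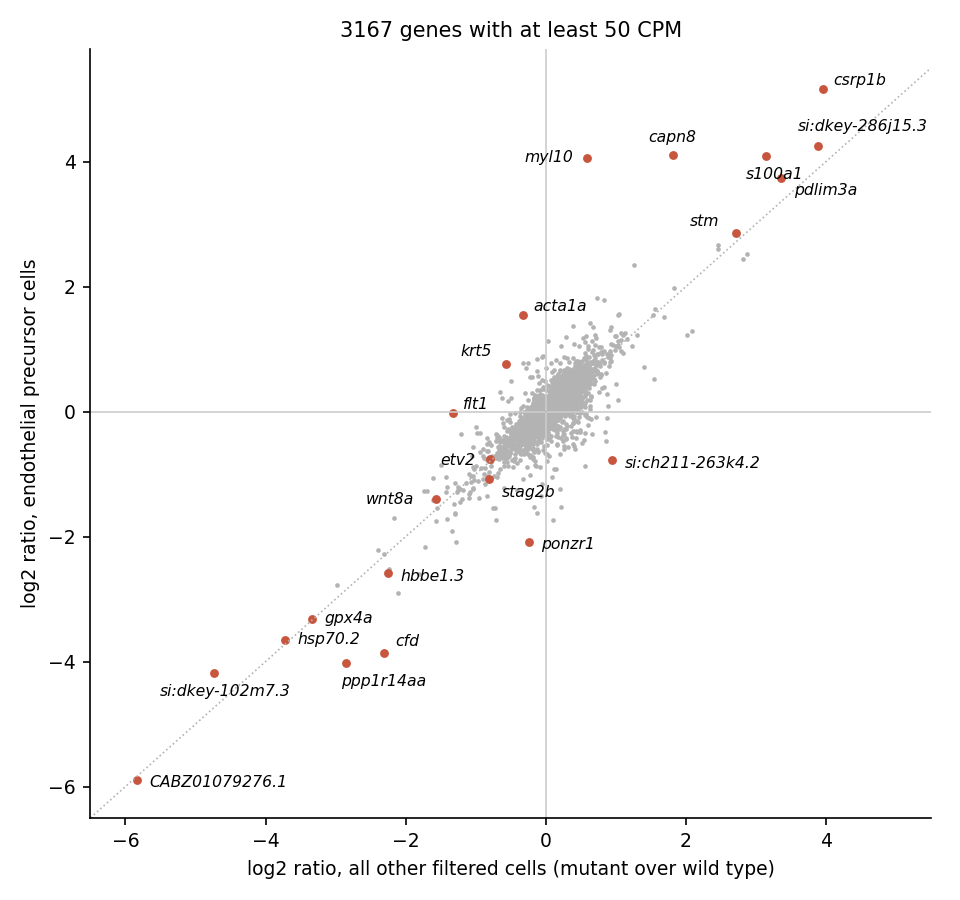
Log2 ratio (stag2b-/- over wild type) of 3167 genes in endothelial precursors (vertical) against that in all other filtered cells of the same libraries (horizontal), with the line of equality dotted and 22 genes labelled. Most genes with large ratios lie near the line. Of the labelled genes, ponzr1 and cfd are among those below it, and myl10, capn8 and flt1 among those above it.

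Signalling pathways were compared through their listed genes. In Bmp signalling, which promotes ventral and vascular fates, none of 15 measured genes passed 2-fold and the median was -0.20. The direct targets id1, at 2592 against 1932 CPM (log2 ratio -0.42), id3, at 156 against 83.9 CPM (-0.89), and id2a, at 116 against 67.9 CPM (-0.77), lay below 0. After thinning these ratios were -0.46, -0.33 and -0.20. For id2a, 10 wild-type cells held 52.3% of the UMIs. Without the UMIs of the 10 cells of each library that held most of it, id2a was at 55.3 and 43.3 CPM. bmpr2a, a type II receptor, had a log2 ratio of -0.95 and the effector smad5 one of 0.34. The sum of the list was 3548 against 2762 CPM. id1 and id3 were also lower in the other cells, by log2 ratios of -0.41 and -1.03.

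Of 9 genes of the Wnt pathway, wnt8a, a Wnt ligand of the tailbud summed here over both genes annotated with that symbol, was lower by 2-fold, at 143 against 53.9 CPM (log2 ratio -1.41, and -1.56 elsewhere). The targets axin2, lef1 and nkd1 had log2 ratios of -0.16, -0.22 and 0.20, and the list's median was 0.11 (-0.02 after TMM scaling) while its sum was 919 against 880 CPM. None of 13 genes of Fgf signalling and none of 5 of hedgehog signalling passed 2-fold. Their medians were 0.14 and -0.07, and the hedgehog sum, 390 against 449 CPM, differed in direction from its median. Of 16 genes of matrix and adhesion, lama5 and efemp2a were higher and itga4 lower by 2-fold, with a median of -0.24. The lama5 ratio of 1.13 lay within 2-fold in 5 alternatives and the itga4 ratio of -1.19 in 4, and 10 cells held 74.4% and 46.6% of the lama5 UMIs and 88.0% and 65.0% of the efemp2a UMIs. In that list fn1b, a fibronectin, was at 447 against 269 CPM (-0.73), and hapln1b, a hyaluronan link protein, at 112 against 81.1 CPM (-0.46) where the other cells showed 0.87. Among 25 hox and cdx genes, which set axial position, hoxa13a alone passed 2-fold (-1.27) and the median was -0.03. The hoxa13a ratio was -0.081 after thinning and -0.69 in cells with more endothelial than paraxial UMIs.

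Most mitotic genes had slightly higher values in the mutant cells. Of 26 measured, 23 had a log2 ratio above 0, against 3658 of all 6119 genes at that level, and 3 (aurkb, smc4 and birc5a) lay below it. None reached 2-fold, and the median was 0.38 against 0.08 in all other cells. After TMM scaling the median was 0.26 with 7 genes below 0. All 27 listed mitotic genes summed to 2700 against 3379 CPM (3069 and 3196 CPM in other cells). top2a, a topoisomerase, was at 135 against 214 CPM (0.67), the centromere gene cenpf at 93.9 against 147 CPM (0.65) and cyclin ccnb1 at 103 against 157 CPM (0.61). Without called doublets the median was 0.39, again with 3 genes below 0. S-phase genes had a median of -0.03 over 22 genes, with mcm7, a helicase subunit, the one past 2-fold (-1.05, and -1.43 elsewhere), a call lost in 3 alternatives.

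Genes of stress and handling were lower in the mutant endothelial precursors and in the other mutant cells. Over 20 such genes the median was -0.54 in endothelial precursors and -0.55 in all other cells, with 4 lower and 1 higher by 2-fold. hsp70.2 and hsp70.3, near-identical copies, had log2 ratios of -3.65 and -1.71, atf3 one of -1.27 (-0.38 after thinning) and socs3a one of -1.40, while hsp90aa1.1 was at 40.1 against 108 CPM (1.43). The immediate-early gene fosab was at 641 against 350 CPM (-0.87). These levels moved with the same libraries as the endothelial list, and their part in it was not tested.

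**Figure D5:**
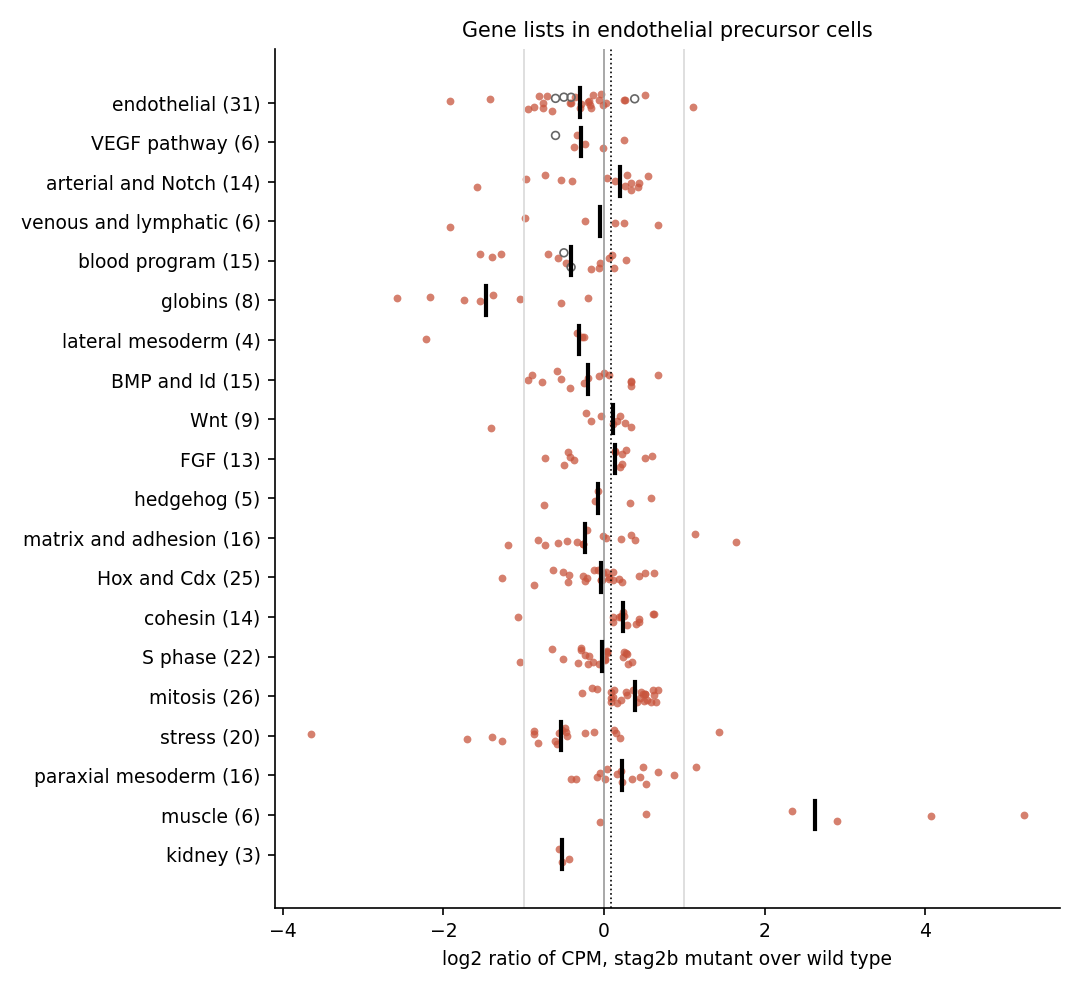
Log2 ratio (stag2b-/- over wild type) of each gene that reached 20 CPM, for 20 lists, with a black bar at each list's median, open circles for the rule's genes, a dotted line at the median of all genes (0.09) and pale lines at -1 and 1. The globin list lies lowest with a median of -1.46, the muscle list highest at 2.62, where 10 mutant cells held 91.1% to 99.3% of the UMIs of actc1b, tnnt2c and tnni2b.1, and the endothelial list sits below the dotted line at -0.30.

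Transcripts of other cell types were counted in the chosen cells beside these results. The median cell held 7 UMIs of the paraxial list in wild type and 15 in stag2b-/-, against 90 and 63 UMIs of the endothelial list without the rule's genes. The 16 paraxial genes at 20 CPM had a median of 0.22, and ripply1 alone was past 2-fold (1.14, and 1.08 elsewhere). All 19 genes of that list summed to 2254 against 2452 CPM. The 9 epidermal genes at 20 CPM had a median of -0.09, but all 13 of the list summed to 1133 against 1247 CPM. Keratin UMIs came from few cells, the highest mutant cell holding 1772 of 3346 krt4 UMIs and 1096 of 1282 krt5 UMIs. In cells with at least 2 etv2 UMIs the epidermal median was -0.92 and the sums were 1252 against 683 CPM. Muscle genes were low in both libraries, with a sum of 82.9 against 269 CPM, 4 of 6 higher by 2-fold and a median of 2.62. This rested on few cells: 10 mutant cells held 92.0% of the actc1b UMIs, 99.3% of those of tnnt2c and 91.1% of those of tnni2b.1, and without their UMIs the mutant levels were 3.44, 0.209 and 1.88 CPM. The neural list (4 genes at 20 CPM) summed to 149 against 243 CPM, and the kidney list (3 genes at 20 CPM) to 252 against 177 CPM. In all other filtered cells the kidney list summed to 34.3 against 45.6 CPM. For neural genes the median was 0.77, with sox3 past 2-fold at 14.8 against 35.0 CPM (1.24, and 0.37 elsewhere). Without called doublets the neural median was 0.38 and sox3 was within 2-fold (0.73). Of 2 axial genes, ntd5 was past 2-fold (1.43), and of the 2 genes of neural crest and macrophages that were measured, foxd3 was, at 10.3 against 22.3 CPM (1.11), a call lost in 7 alternatives. The tailbud progenitor genes tbxta and noto had log2 ratios of -0.04 and -0.41. The macrophage and neutrophil genes mpeg1.1, mpx and cxcr3.2 were at 0. When the chosen cells were narrowed to those with more endothelial than paraxial UMIs, 251 in wild type (75.4%) and 356 in stag2b-/- (69.5%), the median of the endothelial list without the rule's genes was -0.22. That narrowing used UMIs of the same endothelial list, so this median describes the narrowed cells and is no check. The part of the other transcripts in the remaining differences was not tested.

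One further gene drew on few cells. hand2, a factor of lateral mesoderm, was at 32.9 against 7.1 CPM (log2 ratio -2.21), but 10 cells held 98.2% and 91.2% of its UMIs, and without them it was at 0.598 and 0.626 CPM. Asking for at least 3 fli1a UMIs turned its ratio to 0.83.

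The cells just beyond the gata1a limit, with the same fli1a and combined kdrl, lmo2 and tal1 minimums but at least 2 UMIs of gata1a, were 448 in wild type and 641 in stag2b-/-. In these more erythroid cells etv2 was at 223 against 63.5 CPM, a log2 ratio of -1.81. Doublet calls were 12.9% and 26.4% of them.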

How the data were processed

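Single-cell RNA-seq libraries of dissected tailbuds (10x Genomics Chromium), 1 for wild type and 1 for stag2b nz207 mutant, were used. Before depositing them, the authors made UMI counts per gene and barcode with Cell Ranger 7.1.0 on GRCz11, per the file headers and the submitters' processing notes, with a curated transcriptome and intronic reads included. The matrices hold cell-called barcodes with no doublet removal. The authors' clusters and filters were not used here. Library totals were 303216340 and 393322847 UMIs.

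Rows with the same symbol were summed, leaving 27119 symbols. UMIs of the chosen cells were summed per library, scaled to CPM and compared as log2 ratios of mutant over wild type, without a pseudocount. No log2 ratio is given where a sum was 0. Called means at least 2-fold apart, among genes that reached 50 CPM in one or both libraries, or 20 CPM for gene lists. The sum of a list took in all its genes found in the data, also those under 20 CPM and those of the rule. Named genes were stag2b and the rule's genes, the 10 highest and the 10 lowest ratios, list members past 2-fold, the 8 most abundant members of the vascular, blood, lateral mesoderm and Bmp lists, and the 5 highest and the 5 lowest differences from the ratio in other cells. Other genes named (pax2a and further list members among them) were chosen after their values were seen. The members of the population and all 25 lists were chosen with earlier results of these data known.

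Doublets were called per library with Scrublet in Scanpy 1.11.5 and kept, with their removal as an alternative. Thinning drew 5000 UMIs per cell without replacement, so that no filtered cell was left out. The background for shares was taken from cells with at least 2 tp63 UMIs and no fli1a UMI. Alternatives chosen after seeing the data were at least 2 etv2 UMIs, more endothelial than paraxial UMIs, at most 5 globin UMIs, and removal of barcodes found in both libraries. TMM factors came from edgeR 4.0.16 in R 4.3.3. Everything else was computed in Python 3.11.15 with NumPy 2.4.6, SciPy 1.17.1 and matplotlib 3.10.9. The ratio and interval step was tested on simulated data. No p-value was computed, as each genotype had 1 library.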

Additional observations from a re-analysis of the deposited data

Results flagged for a closer look

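si:ch211-263k4.2 had a log2 ratio of -0.77 in endothelial precursors and 0.94 in all other filtered cells, directions that were opposite. The opposition was lost after thinning to 5000 UMIs, where the ratio in endothelial precursors was 1.05. The difference was not tested, and 10 cells held 90.3% of its UMIs in the wild-type endothelial precursors and 88.0% in the mutant ones.

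Barcodes under the minimum of 5000 UMIs were outside every comparison. Of these, 16 in wild type and 25 in the stag2b mutant met the gene conditions for endothelial precursors.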

How the results depend on the processing

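With 1 library per genotype, every value measures a library as well as a genotype. Counting limits single genes at about 3 UMIs, or 0.449 and 0.313 CPM. No paired analysis was possible because the labels give no replicate numbers and each genotype has 1 library. The ratio of shares stayed between 1.01 and 1.18 in all settings. With 59 genes higher and 75 lower by 2-fold as reported, the counts were 174 and 161 at 20 CPM, 2094 and 1118 with no limit beyond 10 UMIs, and 229 and 184 at a fold of 1.5. Other settings gave 43 to 79 higher and 55 to 89 lower, TMM scaling giving 43 and 89. Among named genes past 2-fold, ratios changed direction for hand2 at 3 or more fli1a UMIs (0.83), foxd3, cldnh and cldnc after thinning (-0.037, 1.62 and 0.30), hbae1.3 and hbbe3 with at least 2 etv2 UMIs (1.39 and 0.62) and hbae1.3 with at most 5 globin UMIs (2.42), in each case with fewer cells or UMIs counted. Among named genes within 2-fold, 24 changed direction in one or more alternatives, 15 of them with a reported ratio within 0.2 of 0. Of these 24, krt5, si:ch211-263k4.2, tbx2b, hoxb5b, hbae3 and isl1 went past 2-fold the other way, to as far as -2.47, 1.05, 1.76, 1.36, 1.94 and -1.40.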
